A study of Mus musculus with 12 samples.

Results

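The response of control mouse macrophages to palmitate given together with LPS was measured in 6 of the 12 RNA sequencing libraries of the series, 3 with vehicle and 3 with the stimulus, chosen by their titles. All genes with enough counts were taken, without regard to their direction. The cells were peritoneal macrophages drawn into the abdominal cavity by thioglycolate, an irritant broth, isolated on day 4 after its injection, plated, and stimulated on the following day for 8 h. The control mice carried LysM-Cre, a Cre recombinase driven in myeloid cells by the lysozyme 2 locus, and no labelled deletion. The vehicle was BSA in PBS. The stimulus was palmitate, a saturated fatty acid, at 250 uM with LPS, the endotoxin of Gram-negative bacteria, at 100 ng/ml. The treatment tag of the stimulated libraries names palmitate alone, and the series' design text gives both agents. No library received 1 of the 2 agents without the other, so their shares of the response cannot be told apart. The other 6 libraries, labelled PPARγ knockout, were used to estimate the spread between libraries and for 1 comparison near the end.

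LPS is bound by CD14 and by the TLR4 and MD-2 complex on the macrophage surface. Adaptors of that receptor activate NF-kB and MAP kinases, which start the transcription of cytokine genes, and IRF3, which starts that of interferon-β. Secreted interferon-β then acts back on the cells through its receptor and induces a further layer of antiviral genes. Activated macrophages are also known to change their metabolism, to turn arginine into nitric oxide, and to lower the expression of genes of their resting state. Palmitate is taken up as a fuel and as a building block of membranes and ceramides, and in excess it is known to stress the endoplasmic reticulum.

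The 6 control libraries held 17960457 to 22696385 counts each. Libraries of a group correlated at 0.991 to 0.995 (Pearson's r across genes on log2 CPM) and libraries of different groups at 0.872 to 0.876, and the first principal component of the 6 libraries, with 92.9% of the variance, separated the groups. The labels do not say whether the 3 libraries of a group came from separate mice or cultures, so p-values measure only the spread between these libraries. Counts of replicates differed by more than sampling noise, which does not show that they came from separate mice or cultures. Each library was used as a replicate. Markers of peritoneal macrophages summed to between 27646 and 31085 CPM with vehicle (counts scaled to the library size) and between 22315 and 24657 CPM with the stimulus. The same sum was at most 169 CPM in every library for the neutrophil, B cell, mast cell, eosinophil, dendritic cell, fibroblast and erythroid lists. It reached 673 CPM for the T and NK cell list, nearly all of it from Il7r, while Cd3d, Cd3e and Cd3g had at most 3 counts in any library. In bulk samples, fewer cells of a type and less RNA per cell cannot be told apart.

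The stimulus changed most of the measured transcriptome. Of 12914 genes tested with edgeR's quasi-likelihood test, 8612 (66.7%) were called at an adjusted p under 0.05 (Benjamini-Hochberg over all genes tested). There were 4132 higher genes (32.0%) and 4480 lower genes (34.7%), of which 1769 (13.7%) and 2280 (17.7%) differed at least 2-fold. The 3 stimulated libraries did not overlap the 3 vehicle libraries for 9654 genes (74.8%), 4636 higher (35.9%) and 5018 lower (38.9%). Measured rises reached further than measured falls. The genes at least 2-fold lower had a median of 5.50 CPM with vehicle, which limits how far a fall can be counted. A difference of at least 16-fold was called for 316 higher and 98 lower genes, and of at least 100-fold for 111 higher and 7 lower genes. The 1769 strongly higher genes held 10.9% ± 0.115 (SD, n = 3) of the counts with vehicle and 41.6% ± 0.639 with the stimulus. The 2280 strongly lower genes went from 18.4% ± 0.0678 to 5.14% ± 0.0798 of the counts.

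That shift in composition makes small differences depend on the scaling. Libraries were scaled by TMM, which assumes that most genes do not change, and the median log2 fold change of all genes was -0.05. With scaling by the library total, the median was -0.38, a shift of -0.33 that applies to every gene, and 29.2% of the calls were higher instead of 48.0%. Upper-quartile scaling gave a median of -0.25 and 36.1% higher calls. Counts of list members are therefore given with both scalings where the count moves by over 1.5 times or the balance of higher and lower members turns. They are to be read against the 32.0% higher and 34.7% lower of all genes tested. Levels are TMM-scaled CPM, means are ± SD of 3 libraries, and fold changes are log2 of stimulus over vehicle ± standard error. A gene is said to have risen or fallen only where its adjusted p was under 0.05.

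**Figure D1:**
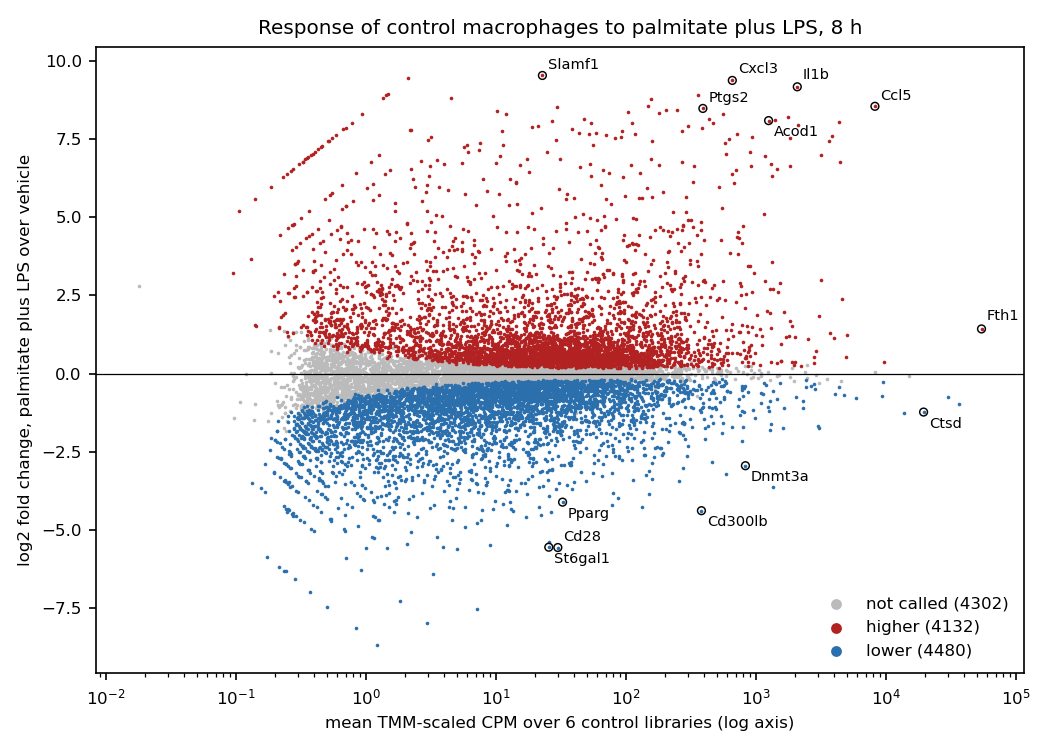
Each point is 1 of the 12914 genes tested, with its mean TMM-scaled CPM over the 6 control libraries on a log axis and its log2 fold change, stimulus over vehicle. Called genes are coloured by direction, and 13 genes named in the text are labelled, with Slamf1 at 9.54 and St6gal1 at -5.56.

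Receptors for LPS and for fatty acids moved in both directions. Of 24 tested members of that list, 13 rose and 9 fell. Tlr4, which encodes the LPS receptor itself, had 70.8, 69.4 and 66.1 CPM with vehicle and 39.2, 32.6 and 35 CPM with the stimulus. The groups did not overlap, and Tlr4 fell (log2 fold change -0.95 ± 0.14). Cd14, the co-receptor that hands LPS to TLR4, rose from 269.9 ± 17.5 to 2090.3 ± 169 CPM (2.95 ± 0.12). Tlr2, the receptor for bacterial lipopeptides, rose from 29.7 ± 0.487 to 723 ± 15.8 CPM (4.61 ± 0.10). Gpr84, a receptor for medium-chain fatty acids, rose from 1.03 ± 0.343 to 105 ± 12.8 CPM (6.71 ± 0.16), while Cd36, a transporter of long-chain fatty acids such as palmitate, fell from 2243 ± 27.7 to 1057 ± 41.4 CPM (-1.09 ± 0.08). The largest adjusted p among these genes was 1.8e-05, for Tlr4 (edgeR).

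Of 23 tested NF-kB genes, 20 rose and 2 fell, with a median log2 fold change of 1.79. Traf1, an adaptor of TNF receptors, rose by 4.56 ± 0.10, Nfkb2, an NF-kB subunit, by 3.95 ± 0.13, and Nfkbiz, a nuclear cofactor of NF-kB, by 3.51 ± 0.14. The list of AP-1, EGR and BATF factors, some of which peak soon after a stimulus, was split: 11 of 19 rose and 6 fell. Batf2 rose from 5.28 ± 0.635 to 162 ± 17.3 CPM (4.94 ± 0.13), while Fos fell from 23.6 ± 0.786 to 4.39 ± 0.639 CPM (-2.42 ± 0.11). In the list of MAP kinase phosphatases and mRNA decay factors, 10 rose and 4 fell of 18. Among factors that degrade cytokine mRNA, Zc3h12a rose by 2.90 ± 0.11 and Zc3h12c by 3.51 ± 0.14. In the list of cytokine signalling feedback, 15 of 23 rose and 3 fell, or 12 and 6 with library-total scaling, and the median was 0.86. Cish, which damps cytokine receptors, rose by 7.83 ± 0.26 and its relative Socs3 by 5.60 ± 0.14, from 2.84 ± 0.505 to 139 ± 11.2 CPM.

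Cytokine genes were among those with the largest rises. Of 36 tested cytokines and growth factors, 29 rose and 5 fell, with a median of 4.35. Il1b, which encodes the inflammasome-processed interleukin-1β, had 7.58, 6.89 and 7.02 CPM with vehicle and 3568, 4709.9 and 4215 CPM with the stimulus, a log2 fold change of 9.18 ± 0.17. Il1a had 38.4, 39.1 and 41.2 CPM with vehicle and 7297, 7771 and 7877 CPM with the stimulus (7.60 ± 0.12). Every stimulated library stood far above every vehicle library for both genes. Il6 rose from 1.44 ± 0.313 to 711 ± 14.5 CPM (8.93 ± 0.15), Tnf from 18.6 ± 0.485 to 2317 ± 64 CPM (6.96 ± 0.10), and Il12a, a subunit of interleukin-12, from 1.19 ± 0.286 to 408 ± 15.6 CPM (8.45 ± 0.15). Edn1, the precursor of the vasoconstrictor endothelin-1, rose from 0.753 ± 0.184 to 296 ± 8.38 CPM (8.58 ± 0.13). Il18 rose from 8.36 ± 0.894 to 96.9 ± 11.6 CPM (3.54 ± 0.15). Igf1, the tissue growth factor insulin-like growth factor 1, fell from 211 ± 9.5 to 80.5 ± 3.58 CPM (-1.39 ± 0.09), and so did the growth factor Pdgfa, from 42.1 ± 2.69 to 17.8 ± 2.33 CPM (-1.24 ± 0.10).

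Chemokine genes rose in 20 of 23 tested members, with a median of 6.63. Cxcl3, a neutrophil attractant, had 1.87, 2.18 and 1.82 CPM with vehicle and 1159, 1439 and 1353 CPM with the stimulus (9.38 ± 0.14). Ccl5, a T cell and monocyte attractant, had 43.4, 43.4 and 44.5 CPM with vehicle and 15033, 17909.8 and 16474 CPM with the stimulus (8.56 ± 0.12). No stimulated library came near a vehicle library for either gene. Of 22 tested receptors for chemokines and other attractants, 13 fell and 7 rose. Those named here bind attractants other than chemokines. C5ar2, a receptor for the complement fragment C5a, fell from 13.8 ± 1.21 to 0.493 ± 0.0307 CPM (-4.79 ± 0.17), Gpr183, which senses oxysterols, from 8.9 ± 0.991 to 0.44 ± 0.158 CPM (-4.32 ± 0.21), and S1pr1, which senses sphingosine-1-phosphate, from 17.9 ± 1.11 to 2.44 ± 0.693 CPM (-2.88 ± 0.16). The formyl peptide receptors Fpr1 and Fpr2, which detect bacterial peptides, were exceptions. Fpr2 rose from 0.185 ± 0.0727 to 53.6 ± 5.63 CPM (8.08 ± 0.18) and Fpr1 from 0.40 ± 0.0241 to 35.7 ± 1.3 CPM (6.46 ± 0.19).

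Promoters of 4 strongly induced genes are shown with the letters of 2 motifs that NF-kB and interferon-activated factors are known to bind. The motifs were GGGA, any 2 bases, then TTCC, an NF-kB type motif, and GAAA, any 2 bases, then GAAA, an interferon response type motif, searched on both strands, in RefSeq windows from 250 bases before to 50 bases after the gene start (GRCm38.p6). Capitals mark the matches, and each sequence runs 5′ to 3′ along the gene's strand. Cxcl10 (chr5:92348840-92349139, minus strand) held both motifs, Cxcl3 (chr5:90785851-90786150, plus strand) held 2 overlapping matches of the NF-kB type, Il6 (chr5:30012864-30013163, plus strand) held 1 of them, and Gbp2b (chr3:142594597-142594896, plus strand) held the interferon type on its reverse strand.
Cxcl10: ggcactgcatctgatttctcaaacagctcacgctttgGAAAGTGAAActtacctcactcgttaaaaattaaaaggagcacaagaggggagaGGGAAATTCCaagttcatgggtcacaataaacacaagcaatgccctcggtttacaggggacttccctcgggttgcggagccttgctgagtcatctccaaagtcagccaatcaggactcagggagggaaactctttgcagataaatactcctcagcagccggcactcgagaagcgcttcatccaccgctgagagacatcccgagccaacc
Cxcl3: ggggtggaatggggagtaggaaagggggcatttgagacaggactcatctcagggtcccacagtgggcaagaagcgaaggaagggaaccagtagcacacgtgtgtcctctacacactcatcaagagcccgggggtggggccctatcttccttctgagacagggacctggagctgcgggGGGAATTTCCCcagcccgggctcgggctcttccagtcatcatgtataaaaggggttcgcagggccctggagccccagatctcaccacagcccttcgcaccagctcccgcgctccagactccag
Il6: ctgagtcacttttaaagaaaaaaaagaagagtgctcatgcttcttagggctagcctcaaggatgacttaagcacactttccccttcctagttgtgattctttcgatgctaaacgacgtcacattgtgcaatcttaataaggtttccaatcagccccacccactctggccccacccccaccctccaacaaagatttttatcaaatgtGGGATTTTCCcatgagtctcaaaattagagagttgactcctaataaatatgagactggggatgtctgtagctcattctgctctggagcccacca
Gbp2b: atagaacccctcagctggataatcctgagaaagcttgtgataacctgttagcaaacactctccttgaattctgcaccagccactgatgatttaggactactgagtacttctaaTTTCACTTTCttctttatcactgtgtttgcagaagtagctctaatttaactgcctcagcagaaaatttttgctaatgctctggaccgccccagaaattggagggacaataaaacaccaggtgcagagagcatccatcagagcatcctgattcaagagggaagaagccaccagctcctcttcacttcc

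In the window of Cxcl10, the interferon type match began 213 bases before the gene start and the NF-kB type match 159 bases before it. That of Il6 began 44 bases before the start, that of Gbp2b 137 bases before it, and those of Cxcl3 73 and 72 bases before it. The windows of Ifit2, Edn1 and Ptgs2os2 met the same rule and are not shown. The Ifit2 window held the NF-kB type only, and those of Edn1 and Ptgs2os2 held the interferon type only. Over 12377 windows of 9702 tested genes, 1.54% held the NF-kB type letters and 3.32% the interferon type letters. Among windows of genes at least 2-fold higher, the shares were 2.04% and 7.60% (34 and 127 of 1670 windows). Genes at least 2-fold lower had 1.37% and 2.69% (30 and 59 of 2196). The NF-kB type shares of both sets were thus near that of all windows. Among windows of genes at least 8-fold higher, the shares were 3.74% and 16.1% (16 and 69 of 428 windows). Among genes at least 8-fold lower they were 0.699% and 3.50% (2 and 10 of 286). Of 60 windows of interferon-stimulated genes on the list, 30 held the interferon type letters. These are letter matches, and binding was not measured.

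All 59 tested interferon-stimulated genes rose, with a median of 4.91, under TMM and library-total scaling alike. Ifnb1 itself, interferon-β, had 0, 1 and 0 counts with vehicle and 7, 8 and 9 counts with the stimulus, so the gene was near the limit of detection at 8 h although it rose (4.44 ± 0.76, edgeR adjusted p = 1.5e-04). Isg15, a ubiquitin-like modifier, had 16.1, 16.6 and 18.1 CPM with vehicle and 3783, 4647 and 4224 CPM with the stimulus (7.96 ± 0.14). Ifit1, an inhibitor of viral mRNA translation, rose from 11.7 ± 1.05 to 3519 ± 205 CPM (8.23 ± 0.11), and Usp18, which removes ISG15 from proteins, from 25.2 ± 1.9 to 2614 ± 145 CPM (6.70 ± 0.12). Every member of the MHC class I and immunoproteasome list also rose (19 of 19), led by the peptide transporter Tap1 (4.69 ± 0.12), while of 10 MHC class II genes 3 rose and 4 fell, or 2 and 7 with library-total scaling. Ciita, the master regulator of class II genes, fell from 5.32 ± 0.932 to 2.71 ± 0.226 CPM (-0.98 ± 0.21).

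Some of the induced genes lie side by side in the genome. Among tested protein-coding genes, 17 runs of at least 4 neighbours all rose by at least 2 on the log2 scale. Tested genes of other types lying between them were not considered, and the 17 runs held 81 genes. The longest, on chromosome 11 from 82951349 to 83215154, held 7 Schlafen genes. Runs of 6 held the Ifi200 family on chromosome 1, the Ifit family on chromosome 19 and the Trim12 and Trim30 genes on chromosome 7. A run on chromosome 5 from 90786103 to 91093649 held Cxcl3, Cxcl1, Cxcl2 and Ereg, and a run on chromosome 19 from 11375523 to 11512577 held Ms4a4a, Ms4a4c, Ms4a4b, Ms4a6c and Gm8369. On the falling side there was 1 such run, Sirpb1a, Sirpb1b, Sirpb1c and Gm5150 on chromosome 3 from 15371827 to 16006332, with log2 fold changes of -2.99 to -2.66. Members of these families are close copies, so how reads were divided between them is uncertain.

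The MS4A proteins are membrane proteins with 4 passes, of which the macrophage members are poorly understood. Of 11 tested, 9 rose and none fell, and with library-total scaling 8 rose and 1 fell. Ms4a4c had 0.747, 0.88 and 0.96 CPM with vehicle and 160.3, 217 and 183 CPM with the stimulus (7.76 ± 0.17), and Ms4a6d rose from 152 ± 4.96 to 1638 ± 158 CPM (3.43 ± 0.13). The groups stood well apart for Ms4a4c. Costimulatory ligands rose in 17 of 22 cases. Slamf1, a receptor that also takes part in TLR4 trafficking, had 0, 0.0766 and 0.101 CPM with vehicle and 37.5, 47.2 and 51.9 CPM with the stimulus, the highest log2 fold change of any named gene with at least 10 CPM (9.54 ± 0.30). Cd40 rose from 6.93 ± 0.28 to 1156 ± 116 CPM (7.38 ± 0.12). The inhibitory receptor Havcr2, also called TIM-3, fell from 14.8 ± 0.548 to 0.561 ± 0.15 CPM (-4.70 ± 0.23), and the checkpoint protein Vsir from 337 ± 14.9 to 95 ± 2.62 CPM (-1.83 ± 0.07).

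**Figure D2:**
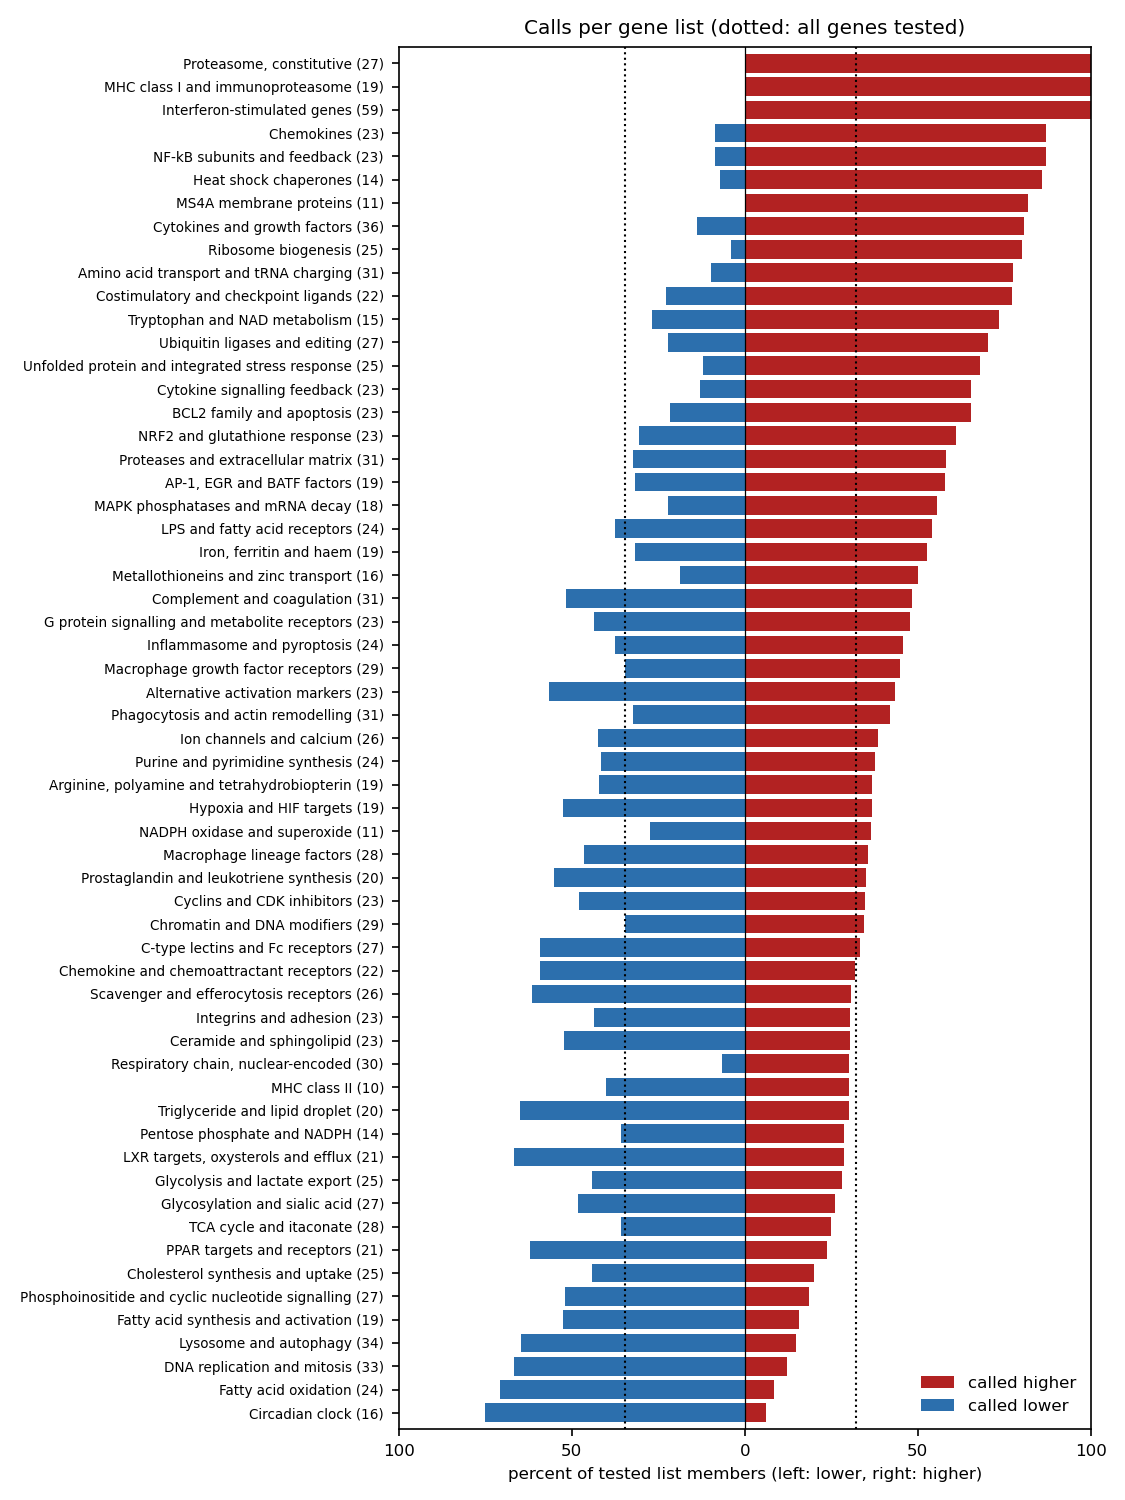
Bars give the percent of tested members of each gene list that were called higher (right) or lower (left) in stimulated control macrophages, with the number tested beside each name. Dotted lines mark 32.0% and 34.7%, the shares over all genes tested. Interferon-stimulated, MHC class I and proteasome lists reach 100% higher, and the clock list has the largest share of lower members among the lists drawn.

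Enzymes of prostaglandin and leukotriene synthesis were called in both directions. Of 20 tested, 7 rose and 11 fell. Ptgs2 (COX-2, chr1:150100031-150108227), the inducible cyclooxygenase, had 1.79, 2.26 and 2.53 CPM with vehicle and 840.0, 697 and 805 CPM with the stimulus (8.49 ± 0.14). Ptgs1, the constitutive cyclooxygenase, had 67.3, 69 and 67 CPM with vehicle and 12.3, 14.9 and 12.1 CPM with the stimulus (-2.37 ± 0.10). The groups did not overlap for either gene, and they moved in opposite directions. Ptges, which makes prostaglandin E2, rose from 6.69 ± 0.889 to 381 ± 11.1 CPM (5.83 ± 0.11), while Hpgds, which makes prostaglandin D2, fell from 332 ± 10.7 to 56.6 ± 2.26 CPM (-2.55 ± 0.10). Alox5ap, needed for leukotriene synthesis, fell from 222 ± 20.6 to 50.6 ± 3.7 CPM (-2.14 ± 0.13). Ptger4, a receptor for prostaglandin E2, fell from 5.05 ± 0.181 to 1.09 ± 0.378 CPM (-2.20 ± 0.29).

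Genes of blood clotting moved in both directions. All 31 tested complement and coagulation genes were called, 15 higher and 16 lower. Serpinb2, an inhibitor of plasminogen activators, rose from 4.67 ± 0.46 to 285 ± 11.9 CPM (5.94 ± 0.18). Thbd, thrombomodulin, which turns thrombin into an anticoagulant, had 24.2, 24.1 and 21.7 CPM with vehicle and 1.05, 0.863 and 0.518 CPM with the stimulus (-4.84 ± 0.18). Procr, the receptor of the protein C that thrombomodulin activates, had 30.6, 31.8 and 34.7 CPM with vehicle and 475, 499.6 and 514 CPM with the stimulus (3.94 ± 0.11). Each gene's groups stood apart, and these members of 1 anticoagulant pathway moved oppositely. F13a1, the clot-stabilising factor XIII subunit and a marker of resident-type macrophages, fell from 11.2 ± 0.713 to 1.28 ± 0.339 CPM (-3.12 ± 0.26). Cfb, complement factor B, rose from 0.295 ± 0.0655 to 34.4 ± 1.13 CPM (6.86 ± 0.15). Of 31 tested proteases, their inhibitors and matrix genes, 18 rose and 10 fell. Slpi, a protease inhibitor, rose from 52.3 ± 4.71 to 1018 ± 34.7 CPM (4.28 ± 0.15) and Timp1 from 2.39 ± 0.284 to 66.9 ± 7.19 CPM (4.81 ± 0.21), while the protease Adam8 fell from 487 ± 23.7 to 60.2 ± 0.62 CPM (-3.02 ± 0.08) and Mmp19 from 41.4 ± 1.47 to 8.88 ± 0.524 CPM (-2.22 ± 0.09).

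Genes of central carbon metabolism were called in both directions. Of 28 tested TCA cycle genes, 7 rose and 10 fell, or 5 and 19 with library-total scaling, with 2 higher and 2 lower at least 2-fold. With TMM, the shares were 25% higher and 35.7% lower, against 32.0% and 34.7% of all genes tested. Acod1 (chr14:103046977-103056573), which diverts the cycle into the antimicrobial metabolite itaconate, had 9.64, 9.03 and 8.64 CPM with vehicle and 2302, 2662 and 2539 CPM with the stimulus (8.10 ± 0.11). Idh1, the cytosolic isocitrate dehydrogenase that yields NADPH, had 459, 468 and 484 CPM with vehicle and 41.5, 44.2 and 43.9 CPM with the stimulus (-3.44 ± 0.09). The vehicle and stimulated libraries did not overlap for either. Nuclear-encoded respiratory chain genes had 9 higher and 2 lower of 30, a balance that turned to 2 higher and 12 lower with library-total scaling, and mitochondrially encoded genes fell in 5 of 6 cases.

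Glycolysis genes did not rise as a group: 7 of 25 rose and 11 fell. The transporter gene Slc2a6 rose from 81.9 ± 7.97 to 1493 ± 38.3 CPM (4.19 ± 0.11), the glucose transporter gene Slc2a1 from 93.8 ± 8.03 to 225 ± 3.59 CPM (1.26 ± 0.08) and Hk2, an inducible hexokinase, from 35.9 ± 2.38 to 138 ± 12.9 CPM (1.94 ± 0.09). Tpi1, a glycolytic isomerase, fell from 198 ± 19.7 to 74.4 ± 8.23 CPM (-1.41 ± 0.13). Pdk1, a kinase that shuts off pyruvate dehydrogenase, had 11.8, 13.9 and 13 CPM with vehicle and 1.74, 0.809 and 0.829 CPM with the stimulus (-3.51 ± 0.34). Its groups did not overlap. Pdk1 is also a target of hypoxia-inducible factors, and of that list 7 of 19 rose and 10 fell. Hif1a rose from 21.3 ± 0.905 to 53 ± 3.11 CPM (1.32 ± 0.10), while Epas1, which encodes HIF-2α, fell from 164 ± 14.1 to 10.3 ± 2.16 CPM (-3.99 ± 0.26). Adm, the vasodilator adrenomedullin, rose from 0.759 ± 0.24 to 19.7 ± 2.56 CPM (4.69 ± 0.18).

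Of 19 genes of arginine, polyamine and tetrahydrobiopterin metabolism, 7 rose and 8 fell (36.8% and 42.1%, against 32.0% and 34.7% of all genes tested). Nos2 (chr11:78920787-78960254), the inducible nitric oxide synthase, had 0.598, 0.957 and 1.01 CPM with vehicle and 224, 223 and 214 CPM with the stimulus (8.02 ± 0.13). Arg1, the arginase of alternatively activated macrophages, had 16, 17.2 and 21 CPM with vehicle and 0.948, 0.917 and 0.777 CPM with the stimulus (-4.35 ± 0.19). The groups stood apart for both genes. Slc7a2, the arginine transporter, rose from 8.92 ± 0.734 to 1161 ± 64.9 CPM (7.02 ± 0.12), Ass1, which regenerates arginine from citrulline, from 2.23 ± 0.311 to 28.9 ± 4.49 CPM (3.70 ± 0.19), and Arg2, the mitochondrial arginase, from 1.4 ± 0.25 to 67.8 ± 1.54 CPM (5.58 ± 0.12). Qdpr, which recycles the cofactor tetrahydrobiopterin, fell from 73.7 ± 3.73 to 34 ± 1.15 CPM (-1.12 ± 0.11). Tryptophan and NAD metabolism genes had 11 higher and 4 lower of 15. In nucleotide and NAD metabolism, Upp1, uridine phosphorylase, rose from 0.416 ± 0.173 to 28 ± 3.33 CPM (6.11 ± 0.21), the NAD-consuming enzyme Cd38 from 5.02 ± 0.921 to 247 ± 12.1 CPM (5.63 ± 0.14) and the NAD salvage enzyme Nampt from 139 ± 5.07 to 753 ± 17.3 CPM (2.44 ± 0.07). Parp1, the DNA repair polymerase, fell from 57.3 ± 2.96 to 21 ± 1.81 CPM (-1.45 ± 0.11), whereas the interferon-inducible Parp12 rose from 7.49 ± 0.925 to 108 ± 4.69 CPM (3.85 ± 0.13).

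Genes of fatty acid oxidation and synthesis fell more often than they rose. In the fatty acid oxidation list, 17 of 24 fell and 2 rose, with a median of -0.44. At least 2-fold falls were called for 4 of them. Hadh, an enzyme of mitochondrial β-oxidation, fell from 64.2 ± 4.42 to 14.5 ± 0.316 CPM (-2.14 ± 0.10) and Acaa2, the thiolase that ends each round, from 95.6 ± 6.59 to 27.8 ± 3.09 CPM (-1.78 ± 0.12). In the fatty acid synthesis list, 10 of 19 fell and 3 rose. The risen members activate fatty acids to their CoA esters: Acsl1 went from 50.6 ± 1.88 to 241 ± 17 CPM (2.25 ± 0.13) and Acsl5 from 105 ± 3.43 to 212 ± 5.63 CPM (1.02 ± 0.07). Fabp3, a fatty acid binding protein, had 2.84, 3.94 and 4.39 CPM with vehicle and 180.5, 197 and 198 CPM with the stimulus (5.70 ± 0.15). Fabp4, a binding protein of fat cells and macrophages, had 412, 392 and 414 CPM with vehicle and 133, 132 and 144 CPM with the stimulus (-1.57 ± 0.15). The 2 binding proteins moved in opposite directions with no overlap between groups. Lpin1, a phosphatase of triglyceride synthesis, fell from 46.4 ± 1.59 to 4.33 ± 0.378 CPM (-3.42 ± 0.15).

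Pparg (chr6:115361221-115490401), the nuclear receptor PPARγ that fatty acids activate, had 62.3, 61.6 and 61 CPM with vehicle and 3.63, 2.86 and 4.14 CPM with the stimulus (-4.11 ± 0.14). The stimulated libraries were all below the lowest vehicle library. Among PPAR targets and receptors, 13 of 21 fell and 5 rose, or 16 and 3 with library-total scaling. Olr1, the receptor for oxidised LDL, was among those that rose, from 0.966 ± 0.263 to 59.96 ± 4.72 CPM (5.92 ± 0.15). Genes of the sterol-sensing receptor LXR, of oxysterols and of cholesterol efflux fell in 14 of 21 cases and rose in 6. Ch25h, which makes 25-hydroxycholesterol, had 0.373, 0.153 and 0.354 CPM with vehicle and 25.8, 36.6 and 29.1 CPM with the stimulus (6.69 ± 0.24). Cyp27a1, which makes 27-hydroxycholesterol, had 33.2, 35.4 and 34.8 CPM with vehicle and 2.68, 3.99 and 3.89 CPM with the stimulus (-3.29 ± 0.14). These oxysterol enzymes moved oppositely, without overlap. Nceh1, which frees stored cholesterol from its esters, fell from 504 ± 7.54 to 100.1 ± 3.82 CPM (-2.33 ± 0.07). Cholesterol synthesis itself had 5 higher and 11 lower of 25, or 0 and 16 with library-total scaling, with the steepest fall at Dhcr7, the last enzyme of the pathway, from 105 ± 7.87 to 19.1 ± 2.14 CPM (-2.46 ± 0.10).

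Ceramide and sphingolipid genes moved in both directions (7 higher and 12 lower of 23). Palmitoyl-CoA is the starting material of ceramide, and ceramide synthases add the second fatty chain. Among those synthases, Cers6 rose from 51.5 ± 1.7 to 269 ± 12.9 CPM (2.39 ± 0.08) and Cers5 fell from 62 ± 3.44 to 17.3 ± 1.27 CPM (-1.84 ± 0.09). Sphk1, which makes sphingosine-1-phosphate, rose from 9.43 ± 0.179 to 121 ± 2.68 CPM (3.68 ± 0.10), and Ugcg, which makes glucosylceramide, from 16.9 ± 1.31 to 78.5 ± 5.95 CPM (2.22 ± 0.11). Cerk, ceramide kinase, fell from 69.7 ± 3.33 to 15.4 ± 1.06 CPM (-2.18 ± 0.11).

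**Figure D3:**
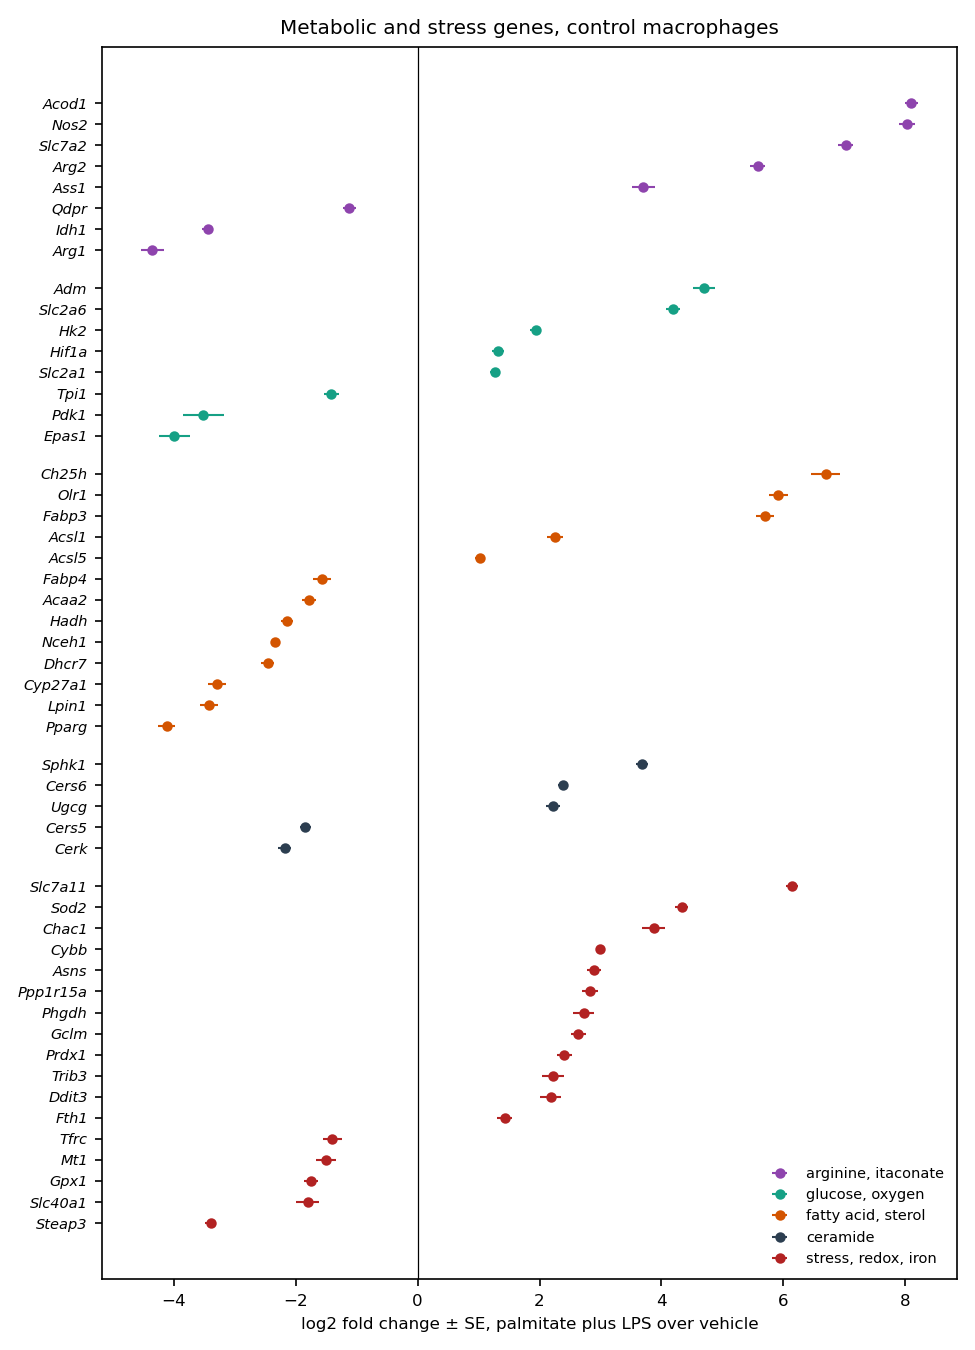
Points are log2 fold changes of the named metabolic and stress genes in control macrophages, stimulus over vehicle, with bars of 1 standard error from the edgeR fit. Acod1, Nos2 and Slc7a2 lie at the far right and Arg1, Pparg, Epas1, Pdk1, Idh1, Lpin1 and Steap3 at the far left.

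In the unfolded protein and integrated stress response list, 17 of 25 rose and 3 fell, or 15 and 5 with library-total scaling. The risen members described here belong to the branch driven by the transcription factor ATF4. Chac1, which degrades glutathione, had 3.21, 3.52 and 2.98 CPM with vehicle and 52.5, 42.4 and 48.1 CPM with the stimulus (3.87 ± 0.19). Trib3, a pseudokinase of the same branch, rose from 29.6 ± 0.405 to 138 ± 26.4 CPM (2.22 ± 0.18) and Ddit3, the factor CHOP, from 51.3 ± 4.42 to 233 ± 24.6 CPM (2.18 ± 0.17). Ppp1r15a, which restarts translation, rose from 88.2 ± 4.6 to 628 ± 102 CPM (2.83 ± 0.13). Sdf2l1, a cofactor of endoplasmic reticulum chaperones, fell from 74.2 ± 3.14 to 58.5 ± 3.06 CPM (-0.34 ± 0.11). Amino acid transport and tRNA charging genes, many of them also ATF4 targets, rose in 24 of 31 cases. Asns, asparagine synthetase, rose from 49.3 ± 2.19 to 366 ± 43.8 CPM (2.89 ± 0.12), and Phgdh, the entry enzyme of serine synthesis, from 7.19 ± 0.713 to 47.3 ± 9.25 CPM (2.72 ± 0.17).

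Slc7a11, the cystine transporter that feeds glutathione synthesis, had 9.0, 9.61 and 9.09 CPM with vehicle and 670.1, 607 and 679 CPM with the stimulus (6.14 ± 0.09). Its groups did not overlap. Of 23 genes of the NRF2 and glutathione list, 14 rose and 7 fell. Prdx1, a peroxiredoxin, rose from 1469 ± 76.8 to 7770.4 ± 469 CPM (2.40 ± 0.12), and Gclm, a subunit of the enzyme that starts glutathione synthesis, from 6.69 ± 0.647 to 41.8 ± 4.18 CPM (2.64 ± 0.12). Gpx1, the peroxidase that uses glutathione, fell from 2514 ± 137 to 748 ± 39.7 CPM (-1.75 ± 0.11). Sod2, mitochondrial superoxide dismutase, rose from 69.8 ± 2.62 to 1406 ± 91.5 CPM (4.33 ± 0.11) and Cybb, the membrane subunit of the NADPH oxidase, from 702 ± 17 to 5606 ± 143 CPM (2.997 ± 0.08). Iron, ferritin and haem genes had 10 higher and 6 lower of 19. Fth1, the ferritin heavy chain, rose from 29568 ± 2330.1 to 79639 ± 6208 CPM (1.43 ± 0.13), while the iron importer Tfrc fell from 55 ± 5.6 to 20.9 ± 1.13 CPM (-1.40 ± 0.16), the iron exporter Slc40a1 from 6.39 ± 0.955 to 1.83 ± 0.352 CPM (-1.80 ± 0.19) and the ferrireductase Steap3 from 207 ± 5.54 to 19.7 ± 0.938 CPM (-3.39 ± 0.09). The metallothionein Mt1 fell from 161 ± 13.8 to 57.1 ± 7.8 CPM (-1.50 ± 0.17).

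All 27 tested subunits of the constitutive proteasome rose, with a median of 1.03, and 25 did with library-total scaling. Psma5, a subunit of the core's outer ring, had 27.7, 29.7 and 31.1 CPM with vehicle and 139.5, 159.9 and 147 CPM with the stimulus (2.33 ± 0.12), and no stimulated library overlapped the vehicle range. Ubiquitin ligases and editing enzymes rose in 19 of 27 cases. Rnf213, a giant ligase, rose from 18.6 ± 1.78 to 432 ± 13.4 CPM (4.53 ± 0.10), and Uba7, which activates ISG15, from 38.6 ± 1.35 to 362 ± 7.22 CPM (3.23 ± 0.10). Peli2, a ligase of the Pellino family, fell from 5.83 ± 0.172 to 0.755 ± 0.152 CPM (-2.94 ± 0.19). Sqstm1, the autophagy receptor p62, rose from 178 ± 9.22 to 1332 ± 80.8 CPM (2.91 ± 0.10). Of 25 ribosome biogenesis genes, 20 rose and 1 fell, or 15 and 4 with library-total scaling. Wdr43, a small-subunit processing factor, rose from 45 ± 1.15 to 139.9 ± 4.83 CPM (1.64 ± 0.09). Heat shock chaperones rose in 12 of 14 cases and fell in 1, or 9 and 2 with library-total scaling. Those that rose included Hsp90aa1, from 22.7 ± 0.661 to 79.6 ± 3.6 CPM (1.81 ± 0.08).

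Survival and death genes rose more often than they fell (15 and 5 of 23). Bcl2a1d, a survival member of the BCL2 family with near-identical copies, rose from 5.18 ± 0.722 to 124 ± 13.2 CPM (4.59 ± 0.13), and Cflar, which blocks caspase-8, from 50.1 ± 1.6 to 574 ± 19.9 CPM (3.52 ± 0.11). Bcl2l11, the death-promoting BIM, fell from 36.6 ± 2.02 to 16.7 ± 1.1 CPM (-1.13 ± 0.10). Genes of inflammasomes and pyroptosis rose in 11 and fell in 9 of 24 cases, or 11 and 11 with library-total scaling. Nlrp3, the inflammasome sensor, rose from 6.46 ± 1.46 to 83.2 ± 10.02 CPM (3.67 ± 0.19), Casp1, which cleaves interleukin-1β, from 91.5 ± 3.25 to 434 ± 36.2 CPM (2.25 ± 0.11), and Mlkl, the effector of necroptosis, from 19.7 ± 1.6 to 416 ± 18.3 CPM (4.40 ± 0.09), while Pycard, the adaptor that joins sensor and caspase, fell from 73.2 ± 4.64 to 37.2 ± 6.19 CPM (-0.97 ± 0.14).

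The falling programmes included lysosomal digestion. In the lysosome and autophagy list, 22 of 34 fell and 5 rose, or 29 and 3 with library-total scaling, with a median of -0.53. Tfeb, a transcription factor that drives lysosome genes, had 45.6, 46.3 and 46.8 CPM with vehicle and 13.2, 13.4 and 11.7 CPM with the stimulus (-1.86 ± 0.13). Lipa, the lysosomal lipase that frees cholesterol and fatty acids, had 4524, 4557 and 4731 CPM with vehicle and 1398, 1444 and 1504 CPM with the stimulus (-1.67 ± 0.07). The stimulated libraries were below the vehicle libraries throughout. Ctsd, the protease cathepsin D, fell from 27434 ± 1679 to 11685 ± 509 CPM (-1.23 ± 0.09), and Manba, a mannosidase, from 58.8 ± 1.49 to 14.4 ± 0.713 CPM (-2.02 ± 0.12). Sgsh, a sulfatase of heparan sulfate breakdown outside the list, fell from 24.3 ± 1.02 to 1.39 ± 0.0188 CPM (-4.12 ± 0.19).

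Receptors for cargo fell more often than they rose. Of 26 tested scavenger and efferocytosis genes, 16 fell and 8 rose. Gas6, the bridge between dying cells and the receptors MERTK and AXL, fell from 11.5 ± 1.28 to 1.3 ± 0.107 CPM (-3.14 ± 0.28), while Axl itself rose from 12.9 ± 0.614 to 109 ± 3.49 CPM (3.07 ± 0.11). Stab1, a scavenger receptor, fell from 33.8 ± 1.89 to 6.62 ± 0.499 CPM (-2.35 ± 0.12), and Anxa1, a resolution mediator, from 4731 ± 268 to 1420.0 ± 67.7 CPM (-1.74 ± 0.11). C-type lectins, Fc receptors and related receptors fell in 16 of 27 cases. Cd300lb, an activating receptor of the CD300 family, had 703, 718 and 764 CPM with vehicle and 36.2, 32.6 and 35.4 CPM with the stimulus (-4.39 ± 0.08). Clec4e, the lectin Mincle, which senses mycobacterial glycolipids, had 47.2, 51.8 and 47.6 CPM with vehicle and 6164, 6247 and 6503 CPM with the stimulus (7.01 ± 0.12). Neither gene's groups overlapped, and the directions were opposite. Tarm1, a myeloid receptor that associates with the Fc receptor γ chain, rose from 0.69 ± 0.169 to 314 ± 43.3 CPM (8.80 ± 0.16).

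**Figure D4:**
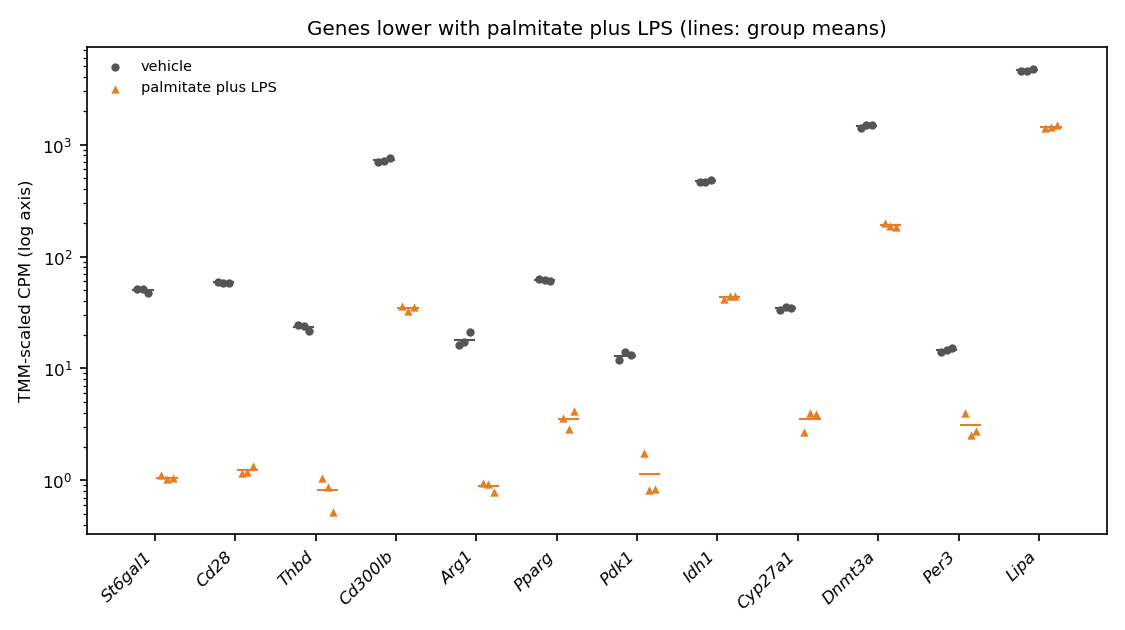
Points are the TMM-scaled CPM of each of the 6 control libraries on a log axis, circles for vehicle and triangles for the stimulus, for 12 genes that fell. The groups are separate for each gene drawn.

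Several transcription factors of the resting macrophage fell, within a list that moved both ways (10 higher and 13 lower of 28, or 6 and 16 with library-total scaling). With TMM, 35.7% of the list rose and 46.4% fell, against 32.0% and 34.7% of all genes tested. Maf, a factor of macrophage differentiation that restrains self-renewal, had 41, 37.4 and 37.9 CPM with vehicle and 11.6, 16.6 and 13 CPM with the stimulus (-1.50 ± 0.14). The groups were separate. Id3 fell from 59 ± 6.74 to 7.7 ± 0.599 CPM (-2.94 ± 0.18) and Mef2c from 26.3 ± 2.62 to 7.31 ± 0.31 CPM (-1.85 ± 0.11). Cebpb, a factor of inflammatory activation, rose from 4.79 ± 0.463 to 27.5 ± 1.51 CPM (2.53 ± 0.15). Growth factor and related receptors had 13 higher and 10 lower of 29, or 12 and 12 with library-total scaling. Csf1r, the receptor for the survival factor CSF1, fell from 619.8 ± 6.39 to 362 ± 11.8 CPM (-0.78 ± 0.12), and Il6ra, the receptor for interleukin-6, from 21.7 ± 4.65 to 1.2 ± 0.132 CPM (-4.18 ± 0.36), while Met, the receptor for hepatocyte growth factor, rose from 3.45 ± 0.529 to 151 ± 12.8 CPM (5.44 ± 0.13).

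Alternative activation markers did not fall as a set. All 23 were called, 10 higher and 13 lower. Clec10a, a galactose-binding lectin, fell from 6.0 ± 0.864 to 0.492 ± 0.217 CPM (-3.58 ± 0.28) and Mrc1, the mannose receptor, from 50.9 ± 1.17 to 23.2 ± 3.38 CPM (-1.13 ± 0.14), alongside Arg1. The chemokines Ccl22 and Ccl17, which attract T cells through CCR4, rose, Ccl22 from 0.395 ± 0.0484 to 28.4 ± 7.11 CPM (6.13 ± 0.32) and Ccl17 from 0.0293 ± 0.0262 to 5.96 ± 1.71 CPM (7.48 ± 0.52). Socs2, a feedback inhibitor of growth factor signalling, rose from 0.483 ± 0.0543 to 11.6 ± 0.352 CPM (4.58 ± 0.17).

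Circadian clock genes fell in 12 of 16 tested cases and 1 rose, with a median of -1.09. Per3, a repressor of the clock, had 14, 14.7 and 15.1 CPM with vehicle and 4.0, 2.54 and 2.75 CPM with the stimulus (-2.23 ± 0.16). Tef, a clock output factor, had 20.02, 19.1 and 15.9 CPM with vehicle and 4.53, 3.78 and 3.21 CPM with the stimulus (-2.26 ± 0.17). The groups did not overlap for these 2 genes. Per1 fell from 8.79 ± 0.515 to 2.66 ± 0.0742 CPM (-1.72 ± 0.19) and Cry2 from 8.94 ± 0.221 to 3.99 ± 0.926 CPM (-1.16 ± 0.19). The labels give no time of day for the collection of either group, so its part was not tested.

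DNA replication and mitosis genes fell in 22 of 33 cases and rose in 4. Mcm2, a subunit of the replicative helicase, fell from 8.66 ± 0.435 to 3.27 ± 0.179 CPM (-1.40 ± 0.19), Top2a, which untangles chromosomes, from 8.29 ± 0.847 to 3.63 ± 0.535 CPM (-1.19 ± 0.16), and Rrm2, which supplies deoxynucleotides, from 6.92 ± 0.636 to 2.29 ± 0.206 CPM (-1.59 ± 0.20). Mki67, the gene of the proliferation marker Ki-67, had 2.2, 2.18 and 2.12 CPM with vehicle and 36.3, 31 and 38.3 CPM with the stimulus (4.02 ± 0.12). It was thus higher in every stimulated library than in any vehicle library, against the direction of most of the list. Cdkn1a, the cell cycle inhibitor p21, rose from 89.5 ± 2.15 to 709 ± 31.9 CPM (2.99 ± 0.08), and the cyclin Ccnd2 from 1.25 ± 0.422 to 69.1 ± 16.5 CPM (5.74 ± 0.25). Chromatin and DNA modifiers had 10 higher and 10 lower of 29, or 6 and 15 with library-total scaling. The TMM shares, 34.5% each way, were near the 32.0% and 34.7% of all genes tested. Dnmt3a, a de novo DNA methyltransferase, had 1419.8, 1488 and 1513 CPM with vehicle and 200.1, 188 and 185 CPM with the stimulus (-2.95 ± 0.08). Its groups did not overlap. Dnmt1, the maintenance methyltransferase, fell from 78.2 ± 5.27 to 24.6 ± 1.92 CPM (-1.67 ± 0.20), and Kdm6b, a histone H3K27 demethylase, rose from 15.1 ± 1.76 to 79.3 ± 3.89 CPM (2.39 ± 0.11).

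Of 27 phosphoinositide and cyclic nucleotide genes, 14 fell and 5 rose, or 17 and 3 with library-total scaling. Inpp5d, the lipid phosphatase SHIP1, fell from 74.5 ± 2.66 to 17.4 ± 1.68 CPM (-2.10 ± 0.15), and Adcy7, an adenylate cyclase, from 130.3 ± 8.62 to 26.9 ± 1.25 CPM (-2.28 ± 0.14). Pde4b, which degrades cyclic AMP, rose from 21.3 ± 1.43 to 88.8 ± 5.6 CPM (2.06 ± 0.09). Receptors for metabolites and lipids were called in both directions (11 higher and 10 lower of 23, or 11 and 12 with library-total scaling). Hcar2, the niacin and β-hydroxybutyrate receptor, had 2.17, 1.99 and 2.12 CPM with vehicle and 192, 237 and 218 CPM with the stimulus (6.68 ± 0.13), with the groups far apart. Adora2a, the adenosine receptor that raises cyclic AMP, rose from 2.5 ± 0.538 to 79.1 ± 13.8 CPM (4.999 ± 0.15), while the lysophosphatidic acid receptors Lpar5 and Lpar6 fell, Lpar6 from 71.6 ± 0.32 to 5.58 ± 0.318 CPM (-3.68 ± 0.11) and Lpar5 from 11.1 ± 0.536 to 0.566 ± 0.262 CPM (-4.28 ± 0.24). Rgs18, a regulator of G protein signals, fell from 42.8 ± 2.92 to 1.86 ± 0.118 CPM (-4.51 ± 0.15). Ion channel and calcium genes had 10 higher and 11 lower of 26 (38.5% and 42.3%, against 32.0% and 34.7% of all genes tested). Clic5 rose from 0.521 ± 0.0704 to 61.4 ± 3.61 CPM (6.86 ± 0.13) and the potassium channel Kcnj2 fell from 18.1 ± 0.968 to 1.86 ± 0.449 CPM (-3.27 ± 0.16).

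Of 31 actin and phagocytosis genes, 13 rose and 10 fell, or 8 and 16 with library-total scaling. The TMM shares were 41.9% higher and 32.3% lower, against 32.0% and 34.7% of all genes tested. Coro1a, an actin-binding protein of phagosomes, fell from 277 ± 20.8 to 38.4 ± 3.18 CPM (-2.85 ± 0.11) and Dock2, an activator of RAC, from 194 ± 15.2 to 28.3 ± 3.76 CPM (-2.77 ± 0.23). Rnd1 and Rnd3, atypical small GTPases that loosen actin fibres, rose, Rnd1 from 1.24 ± 0.436 to 28 ± 1.54 CPM (4.52 ± 0.23) and Rnd3 from 12.2 ± 0.496 to 103 ± 3.69 CPM (3.07 ± 0.11). Of 27 glycosylation and sialic acid genes, 7 rose and 13 fell. St6gal1 (chr16:23224740-23360350), which adds α2,6-linked sialic acid to surface glycans, had 51.3, 51.2 and 47.4 CPM with vehicle and 1.11, 1.03 and 1.04 CPM with the stimulus (-5.56 ± 0.20). St3gal1, which adds α2,3-linked sialic acid, had 34.2, 35.9 and 38.5 CPM with vehicle and 139, 146 and 149 CPM with the stimulus (1.998 ± 0.08). These transferases moved in opposite directions without overlap. Fut7, a fucosyltransferase that makes selectin ligands, fell from 6.33 ± 0.952 to 0.335 ± 0.0868 CPM (-4.21 ± 0.23).

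Some of the steepest falls lay outside every list. Cd28 (chr1:60716800-60773359), known as a costimulatory receptor of T cells, had 59.2, 58.4 and 58.5 CPM with vehicle and 1.16, 1.19 and 1.35 CPM with the stimulus (-5.57 ± 0.12). Rasgrp3, an activator of RAS, had 18.3, 17.5 and 17 CPM with vehicle and 0.158, 0.594 and 0.414 CPM with the stimulus (-5.48 ± 0.26). For these genes the highest stimulated library was far below the lowest vehicle library. In the T and NK cell marker list, Cd3d, Cd3e and Cd3g were at 0 to 2 counts in every vehicle library, and the part of other cells in Cd28 was not tested. Arhgap19, a GTPase-activating protein, fell from 49.99 ± 5.02 to 1.19 ± 0.332 CPM (-5.38 ± 0.23), Cnr2, the peripheral cannabinoid receptor CB2, from 32.9 ± 1.92 to 1.37 ± 0.134 CPM (-4.58 ± 0.20), and Abcd2, a peroxisomal importer of very long-chain fatty acids, from 25 ± 1.13 to 1.25 ± 0.0792 CPM (-4.32 ± 0.22). Matk, a kinase that restrains SRC kinases, fell from 252 ± 11.6 to 13.1 ± 0.564 CPM (-4.27 ± 0.10), and the adhesion receptor Adgre5, also called CD97, from 283 ± 9.06 to 19.5 ± 0.963 CPM (-3.86 ± 0.11).

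Several genes outside the lists rose. H2-M2 (chr17:37480851-37483552), a non-classical MHC class I gene, had 12.7, 13.3 and 13.4 CPM with vehicle and 1723, 1834 and 1831 CPM with the stimulus (7.09 ± 0.13). Mir155hg, the host transcript of miR-155, had 0.523, 0.727 and 0.606 CPM with vehicle and 202, 215 and 202 CPM with the stimulus (8.37 ± 0.15). Both were above every vehicle library in every stimulated library. Serpina3f, a serpin, rose from 0.164 ± 0.122 to 58.7 ± 6.16 CPM (8.54 ± 0.21), Rnf225, a RING finger gene, from 0.336 ± 0.0587 to 94.7 ± 6.31 CPM (8.14 ± 0.16), and Cst7, the cystatin F that inhibits lysosomal proteases, from 0.311 ± 0.066 to 57.3 ± 0.984 CPM (7.48 ± 0.18). Car2, carbonic anhydrase 2, rose from 0.879 ± 0.152 to 88.2 ± 6.26 CPM (6.62 ± 0.16), the RNA-binding protein gene Igf2bp1 from 0.0922 ± 0.0513 to 14.7 ± 2.36 CPM (7.17 ± 0.27) and Ptx3, a secreted pattern receptor, from 0.139 ± 0.0233 to 22.7 ± 1.18 CPM (7.30 ± 0.25). Ptgs2os2, an antisense transcript beside Ptgs2, rose from 0.0548 ± 0.020 to 20.5 ± 1.31 CPM (8.39 ± 0.24), and its reads cannot be told apart from those of an overlapping neighbour because the strand setting of the counting is not given in the sources used here.

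**Figure D5:**
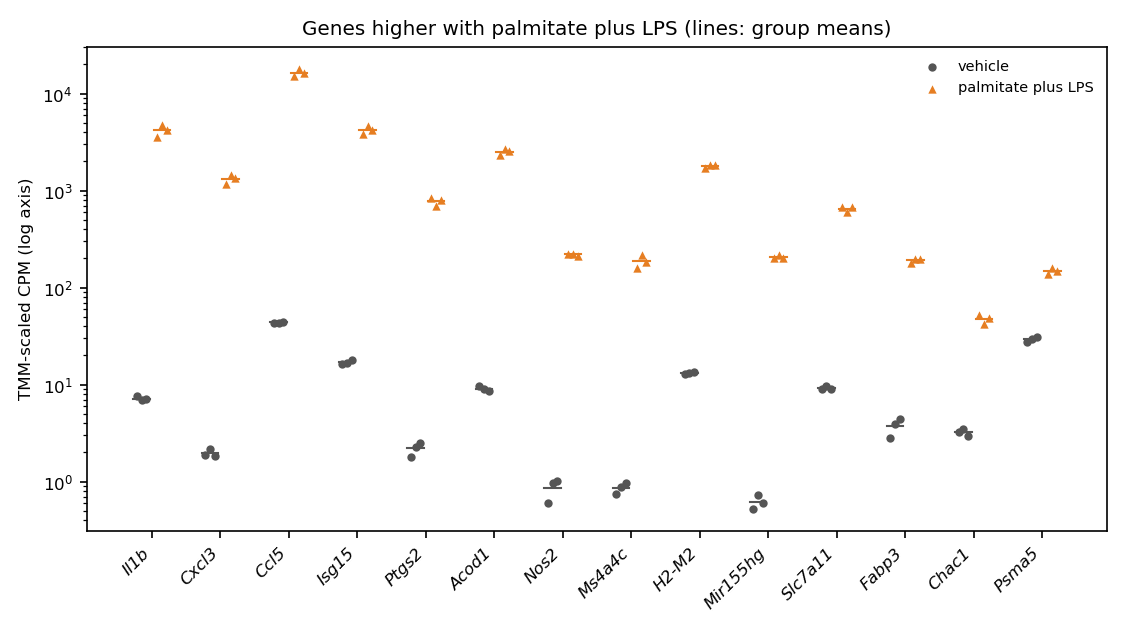
Points are the TMM-scaled CPM of each of the 6 control libraries on a log axis, circles for vehicle and triangles for the stimulus, for 14 genes that rose, within and outside the cytokine and interferon lists. The 2 groups of points are separate for each gene drawn.

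On a scale per exon length (RPKM, from TMM-scaled libraries), the largest gain in level was that of Fth1, from 34143 ± 2691 to 91962 ± 7169 RPKM. Ccl5 followed, from 45.6 ± 0.658 to 17159 ± 1498 RPKM, and then Ccl3, from 106 ± 1.58 to 11503 ± 1129 RPKM. Among the 10 largest gains, Fth1, the ferritin heavy chain, and B2m, the light chain of MHC class I, were already abundant with vehicle: B2m went from 3509 ± 205 to 8257 ± 678 RPKM. Among the largest losses, Ctsd went from 10891 ± 667 to 4639 ± 202 RPKM, Gpnmb, a glycoprotein of lipid-laden macrophages, from 12735 ± 746 to 6536 ± 96.7 RPKM, and Psap, the precursor of sphingolipid activator proteins, from 7058 ± 722 to 2930.4 ± 45.6 RPKM. These losses are large on the RPKM scale and modest as ratios, with a log2 fold change of -0.96 ± 0.07 for Gpnmb and -1.27 ± 0.09 for Psap.

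Some genes had no count in 1 group. There were 23 called genes with 0 counts in all 3 vehicle libraries and 5 with 0 counts in all 3 stimulated libraries. Against a floor of 3 counts per library, Csf2, the granulocyte-macrophage growth factor GM-CSF, was at least 33.5-fold higher, with 73, 80 and 87 counts. Hamp, the iron hormone hepcidin, was at least 22.8-fold higher, with 45, 57 and 61 counts, and Has1, a hyaluronan synthase, at least 21.4-fold higher, with 45, 52 and 56 counts. The lymphocyte cytokines Il22 and Il17a were also in this group: Il22 had 16, 34 and 38 counts and Il17a 11, 35 and 30. Replicate 1 was the lowest of the 3 for both. Beside them, Cd3d, Cd3e and Cd3g had 0 to 3 counts in the stimulated libraries and Lck rose from 1.07 ± 0.275 to 17.2 ± 1.77 CPM (3.999 ± 0.21), and the part of other cells in these 2 transcripts was not tested. Slc16a14, a transporter of the monocarboxylate family, was at least 15.4-fold lower, with 58, 69 and 50 counts in the vehicle libraries.

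Transcripts counted as markers of other cells also moved. Hdc, the histamine-forming enzyme of mast cells, rose from 1.59 ± 0.409 to 77.6 ± 10.9 CPM (5.62 ± 0.18), while the mast cell proteases Cpa3, Tpsb2 and Cma1 had 9 to 114 counts in all 6 libraries. Pdgfrb, a receptor of stromal cells, rose from 0.378 ± 0.0654 to 20.8 ± 2.92 CPM (5.73 ± 0.28), while the stromal collagen gene Col1a1 fell from 44.9 ± 4.69 to 24.7 ± 7.18 CPM (-0.86 ± 0.24). The B cell surface gene Cd22 fell from 78.7 ± 2.37 to 20.7 ± 0.242 CPM (-1.93 ± 0.09). Which cells carried these transcripts was not tested. Lyz2, the lysozyme gene that hosts the Cre insertion, rose from 21.2 ± 2.12 to 114 ± 6.82 CPM (2.42 ± 0.11), from 597, 489 and 445 to 2026, 2229 and 2193 counts. Its near-identical copy Lyz1 had more counts and went the other way, from 8869, 8563 and 7082 to 4627, 5005 and 4877. The level and the rise of Lyz2 are therefore uncertain, and how reads were divided between the copies was not tested.

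The median exon length was 3157 bases for strongly higher genes, 3642 bases for strongly lower genes and 3566 bases for all genes tested. Strongly lower genes included 228 non-coding RNAs of 2280, strongly higher genes 85 of 1769 and all genes tested 689 of 12914, which are shares of 10%, 4.80% and 5.34%. In the list of immediate early genes that cell handling is known to raise, 7 of 12 fell and 4 rose.

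The same stimulus was given to macrophages labelled PPARγ knockout, whose libraries share no sample with the controls. Pparg, counted over all its exons, was not lower under that label. Its mean was 99.4 CPM in the vehicle libraries labelled knockout and 61.6 CPM in the control vehicle libraries. Whether part of the gene was deleted was not tested. Of the 1769 strongly higher genes, 1759 were also higher there, 1706 (96.4%) without overlap between libraries, against 34.6% of all genes tested. Of the 2280 strongly lower genes, 2234 were also lower there, 2032 (89.1%) without overlap, against 35.8% of all genes tested. The response differed between the 2 sets, by an edgeR test of the difference, for 1039 genes (8.05%), 607 (4.70%) with a higher and 432 (3.35%) with a lower log2 response in the libraries labelled knockout. These counts rest on single libraries: leaving out each of the 12 in turn gave 276 to 1023 and 152 to 939 genes. Without vehicle replicate 1 labelled knockout, there were 1017 and 735. Pparg itself had a response of -4.11 ± 0.14 in controls, and the difference of its responses was -0.36 ± 0.19 (edgeR adjusted p = 0.25).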

How the data were processed

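RNA sequencing was done on total RNA purified on Ambion columns, with Clontech SMARTer v1 libraries, per the labels' protocols. Build GRCm38, the aligner STAR 2.0.4b, bcl2fastq 2.0, featureCounts 1.45 and Subread are named in the submitters' processing notes. Neither the strand setting nor the annotation version is given in the sources used here. Per the file headers, each deposited table gives 41388 Ensembl genes with exon coordinates, exon length and the authors' raw counts. The deposited CPM divides each count by the library size, and the deposited RPKM is the same per kilobase of exon; neither entered a test. Symbols from a table of gene names were found for 40254 IDs. Coordinates are as deposited.

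Counts were filtered with filterByExpr by group (12914 genes), scaled by TMM and fitted in edgeR 4.0.16 (quasi-likelihood F-test, robust, R 4.3.3) on all 12 libraries, 1 mean per group, so that 4 groups share 1 estimate of the spread. The contrasts were stimulus minus vehicle in controls, and the difference of responses. The pipeline was tested on simulated data. Alternatives were library-total, upper-quartile and DESeq2 1.42.0 size-factor scaling, DESeq2, limma-voom (limma 3.58.1), filters, fewer libraries, the replicate block and leaving out each library.

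The members and gene lists were chosen with earlier results of these data known. Named genes were 9 fixed genes, the 10 highest and lowest log2 fold changes whose groups did not overlap and whose higher group reached 10 CPM, up to 20 each way outside all lists, the 10 largest RPKM gains and losses, up to 4 each way per list with at least 5 CPM, and up to 6 genes at 0 with vehicle. Predicted genes, pseudogenes and antigen receptor segments were left out of the first 2 of these sets. Fewer were printed, and some are not reported here. Il22, Il17a, Slc16a14, Cd3d, Cd3e, Cd3g, Cpa3, Tpsb2, Cma1, Il7r and the members of neighbouring runs are given as counts or as parts of a list. Promoter windows are from RefSeq (GRCm38.p6); they were chosen by a rule that took the highest log2 fold changes whose window held a motif, and Ifit2, Edn1 and Ptgs2os2 also met it.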

Additional observations from a re-analysis of the deposited data

Results flagged for a closer look

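Of the 225 genes named with a fold change, 44 had a response that differed between control macrophages and those labelled PPARγ knockout. The edgeR test of the difference of log2 responses was used, at an adjusted p under 0.05. Over all 12914 genes tested, it called 1039 (8.05%). The figure in brackets is the difference of log2 responses, coded as labelled knockout less control. The largest adjusted p among the 44 genes was 0.049, for Ptges. With 3 libraries per group, single values were not checked for standing apart within a group.

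Genes that rose in controls rose less in libraries labelled knockout in 22 cases: Cxcl3 (-1.91), Gpr84 (-1.89), Sphk1 (-1.61), Adm (-1.35), Cd14 (-1.28), Olr1 (-1.22), Il1b (-1.17), Car2 (-1.17), Fpr1 (-1.05), Slc7a11 (-1.03), Arg2 (-0.99), Ass1 (-0.92), Gclm (-0.92), Cebpb (-0.84), Socs3 (-0.80), Lyz2 (-0.76), H2-M2 (-0.68), Sod2 (-0.60), Procr (-0.57), Ptges (-0.48), Acod1 (-0.46) and Clec4e (-0.44). Cxcl3 had the largest such difference, with 1.96 ± 0.197 to 1317 ± 143 CPM in controls and 2.36 to 415 CPM on average in libraries labelled knockout. Genes that rose in controls rose more in 9 cases: Cers6 (0.41), Mlkl (0.53), Cflar (0.56), Wdr43 (0.63), Kdm6b (0.66), Uba7 (0.77), Nos2 (1.01), Clic5 (1.06) and Axl (1.93). Axl was the furthest, with 12.9 ± 0.614 to 109 ± 3.49 CPM in controls and 7.17 to 231 CPM in libraries labelled knockout. Genes that fell in controls fell further in 6 cases: Mt1 (-0.96), Alox5ap (-0.69), Cers5 (-0.60), Dhcr7 (-0.59), Gpx1 (-0.56) and Hadh (-0.54). Genes that fell in controls fell less in 7 cases: Nceh1 (0.37), Psap (0.43), Bcl2l11 (0.58), Tfeb (0.72), Dnmt3a (0.78), Arg1 (1.09) and Cyp27a1 (1.19). For Arg1, the controls went from 18.1 ± 2.57 to 0.881 ± 0.0909 CPM and the libraries labelled knockout from 8.84 to 0.916 CPM. Over all 1769 genes at least 2-fold higher in controls, the response differed for 287 (16.2%). Of those 287, 103 rose less in libraries labelled knockout. Over the 2280 genes at least 2-fold lower, it differed for 177 (7.76%), of which 96 fell less. Most genes named were chosen by the size of their response in the same control libraries, so their split does not stand for all genes. Of the 44 genes, 21 kept this call and direction without each of the 12 libraries in turn: Adm, Arg2, Axl, Car2, Cd14, Cers5, Cxcl3, Cyp27a1, Dnmt3a, Gclm, Gpr84, H2-M2, Il1b, Lyz2, Mlkl, Olr1, Slc7a11, Sod2, Sphk1, Uba7 and Wdr43. The fewest calls, 22, remained without control vehicle replicate 2, and 38 remained with library-total scaling. The difference for Lyz2 is uncertain because reads may be divided between it and its near-identical copy Lyz1. The libraries labelled knockout had more Pparg counts than the controls with vehicle. Counts were taken over all exons of the gene, so a loss of part of it was not tested. These differences are therefore not assigned to the labelled genotype.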

How the results depend on the processing

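Every one of the 225 genes named with a fold change kept its call and direction in each of the 17 alternatives that tested it. Most of them were chosen for the size of their change among called genes, so this does not describe calls in general. The 4132 higher and 4480 lower genes became 2644 and 6416 with library-total scaling, 4227 and 4239 with DESeq2, 4143 and 4480 with limma-voom, and 4434 and 4760 with the 6 control libraries alone. A filter at 10 CPM in 3 libraries left 7640 genes, of which 2837 were lower, 1023 at least 2-fold higher and 1072 at least 2-fold lower. Leaving out each control library in turn gave 3877 to 3995 higher, 4107 to 4309 lower, 1798 to 1814 at least 2-fold higher and 2228 to 2310 at least 2-fold lower genes. Of 124 counts of higher or lower list members, 101 stayed within 1.5 times with library-total scaling and 102 with the 10 CPM filter, and at least 116 with every other alternative.

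The difference of responses (607 higher and 432 lower genes) gave 388 and 788 genes with library-total scaling, 1087 and 788 without a filter, 656 lower genes with DESeq2, and 1017 and 735 without vehicle replicate 1 labelled knockout. Leaving out each of the 12 libraries gave 276 to 1023 higher and 152 to 939 lower genes. Over 1.5 times fewer were called without control vehicle replicate 1 (305 and 162) or 2 (276 and 152), control stimulated replicate 2 (321 and 179) or 3 (281 and 170), and stimulated replicate 1 (331 and 192), 2 (383 and 240) or 3 (316 and 194) labelled knockout, and over 1.5 times more without vehicle replicate 3 labelled knockout (1023 and 939). The cause was not tested.

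The replicate numbers did not pair the control libraries: deviations of same-numbered libraries correlated at 0.067, -0.012 and 0.040. With the replicate block, 4128 genes were higher and 4483 lower (1768 and 2273 at least 2-fold), or 4483 and 4810 in the 6 control libraries alone, and the difference of responses had 640 and 375 calls.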

Other observations

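Further genes that changed in control macrophages are given here. Casp4, the caspase that binds LPS inside the cell, rose from 24.2 ± 1.44 to 301 ± 4.57 CPM (3.63 ± 0.09, log2 fold change ± SE), and Il18bp, which neutralises interleukin-18, from 3.94 ± 0.178 to 26.7 ± 1.47 CPM (2.76 ± 0.12). Of 23 integrin and adhesion genes, 7 rose and 10 fell, against 32.0% and 34.7% of all genes tested. Icam1 rose from 27.2 ± 1.47 to 1075 ± 65.7 CPM (5.30 ± 0.10) and the integrin Itgal from 12.9 ± 0.129 to 69.1 ± 2.21 CPM (2.42 ± 0.14), while the laminin-binding integrin Itga6 fell from 15.4 ± 0.956 to 2.85 ± 0.418 CPM (-2.44 ± 0.13) and the vitronectin-binding integrin chain Itgb3 from 20.2 ± 1.15 to 3.9 ± 0.588 CPM (-2.37 ± 0.18). The semaphorin receptors Nrp2 and Nrp1 moved oppositely, Nrp2 from 62.2 ± 5.23 to 389 ± 21.6 CPM (2.64 ± 0.09) and Nrp1 from 374 ± 4.87 to 149.9 ± 10.2 CPM (-1.32 ± 0.09). Tnfrsf1b, the second TNF receptor, rose from 417 ± 26.7 to 2568 ± 206 CPM (2.62 ± 0.18), while Ifngr1, the interferon-γ receptor, fell from 188 ± 5.7 to 73.1 ± 2.45 CPM (-1.37 ± 0.07).

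Metallothionein and zinc transport genes had 8 higher and 3 lower of 16, or 7 and 5 with library-total scaling. Lcn2, which binds bacterial iron carriers, had 1.12, 0.766 and 1.31 CPM with vehicle and 34.3, 38.9 and 38.2 CPM with the stimulus (5.14 ± 0.15), with no overlap between groups. Cp, the iron-oxidising ceruloplasmin, rose from 1.51 ± 0.141 to 11.1 ± 1.28 CPM (2.87 ± 0.21), and the zinc and iron importer Slc39a14 from 4.83 ± 0.337 to 19.5 ± 1.36 CPM (2.01 ± 0.13). Hfe, a regulator of iron uptake, fell from 35.1 ± 1.54 to 7.28 ± 0.398 CPM (-2.27 ± 0.11). Among zinc exporters of the secretory pathway, Slc30a6 rose from 21.2 ± 1.32 to 74.2 ± 2.56 CPM (1.81 ± 0.11). Dck, the kinase that salvages deoxynucleosides, rose from 14.6 ± 0.639 to 58.8 ± 3.19 CPM (2.01 ± 0.10), and the checkpoint ligand Cd274, PD-L1, from 65.5 ± 0.78 to 2255 ± 72.2 CPM (5.10 ± 0.12).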
